A study of Mus musculus with 8 samples.

Results

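The 34 genes described here are mouse genes known to be imprinted. They were chosen by name, and all 34 were found by Entrez identifier among the 27179 genes of the count table. They lie in 14 imprinted clusters or single loci. RNA of 4 isogenic mammary tumour cell lines was sequenced, with 2 libraries for each of 67NR, 66cl4 (spelled 66c14 in the labels), 4T1 and 4T1.2 as biological replicates. The lines were grown in αMEM with foetal calf serum, were untreated and come from a mammary tumour of a BALB/c background, with 4T1.2 a clone of 4T1. 4T1 and 4T1.2 have the higher and 66cl4 and 67NR the lower metastatic potential, so the mean of the first pair was set against that of the second, and the lines were also compared one by one. Each line is a single lineage, so a difference between lines is a difference between these cultures and cannot be told apart from other ways in which the lines diverged.

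An imprinted gene is transcribed mainly from the copy inherited from one parent, because DNA methylation laid down in the egg or the sperm marks one copy at a control region and the mark is kept through cell division. Many imprinted genes act on growth before birth, those expressed from the father's copy often promoting it and those from the mother's copy often restraining it, and many fall to low levels after birth. Tumours can lose the mark on either copy. The counts hold the sum of both copies, and the lines share one background, so parental copies were not separated here.

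Each library held between 37159840 and 66269681 counts, and replicates of a line correlated at 0.995 to 0.996 on the log scale. Levels are given as CPM, counts scaled to the effective size of each library, and a gene at 3 counts or fewer was treated as at the floor, which is 0.0486 to 0.0819 CPM depending on the library. Of the 6 epithelial markers, Epcam had 778 to 2378 counts in the 4T1.2 and 4T1 libraries and 0 or 1 in the 66cl4 and 67NR libraries, Cdh1 had 629 to 2375 against 2 to 7, and Krt8 was present in all 8 libraries at 16981 counts or more. The 6 summed to 1470 to 2890 CPM in 4T1.2 and 4T1 and to 465 to 720 CPM in the others. The 4 mesenchymal markers did not move together. Zeb1 and Cdh2 had at most 28 counts in 4T1.2 and 4T1 and 2311 to 5099 elsewhere, and Fn1 was also lower, at 433 and 564 CPM against 1350 in 66cl4 and 979 in 67NR. Vim went the other way, at 5450 and 5830 CPM against 3280 and 1950, and the sum of the 4 was 5320 to 7350 CPM in 4T1.2 and 4T1 and 3030 to 5230 CPM in the others. The 4 fibroblast markers summed to 115 to 171 CPM against 247 to 506 CPM. Among them Pdgfrb had 69 to 208 counts against 6928 to 16201, Pdgfra was highest in 4T1.2 at 162 CPM against 133 in 66cl4 and 86.5 in 67NR, and Lum had at most 8 counts. Dcn was lowest in 4T1.2, at 0.141 CPM against 0.477 in 4T1, 0.466 in 66cl4 and 0.530 in 67NR. Its pooled log2 difference of -0.91 (edgeR adjusted p = 0.0182) came with overlapping libraries. The 5 leucocyte markers summed to 0.0973 to 0.475 CPM, with Cd3e at 0 in every library, and the 4 endothelial markers to 0.292 to 3.65 CPM. Krt18 had 582 and 1020 CPM in 4T1.2 and 4T1 against 114 in 66cl4 and 0.977 in 67NR. Krt14 had 0.458 and 0.722 CPM against 0.122 and 0.236 in the same order. Krt5 had at most 9 counts and went the other way, at 0.0176 and 0.0324 CPM against 0.0779 and 0.114. Epcam, Cdh1, Krt8, Krt18, Krt14 and Vim were thus higher in 4T1.2 and 4T1, and Zeb1, Cdh2, Fn1 and Pdgfrb lower. Their part in the results was not tested. In bulk RNA, fewer cells of a type and less RNA per cell cannot be told apart.

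Of the 34 imprinted genes, 17 had 3 counts or fewer in every library and 9 of them (26.5%) had no count in any. Among the 23331 genes kept by annotation, 33.0% were at or under this floor throughout and 21.6% had no count. 15 imprinted genes (44.1%) had enough counts to be tested, against 59.7% of all genes. The remaining 2 genes, Cdkn1c and Ascl2, rose above the floor in some libraries without reaching the filter. Of the 20 genes expressed from the father's copy by textbook, 12 were at or under the floor and 8 were tested. Of the 13 expressed from the mother's copy, 5 were at or under the floor and 6 were tested. Genes of a cluster share control regions and are not independent, so these shares are descriptions.

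**Figure D1:**
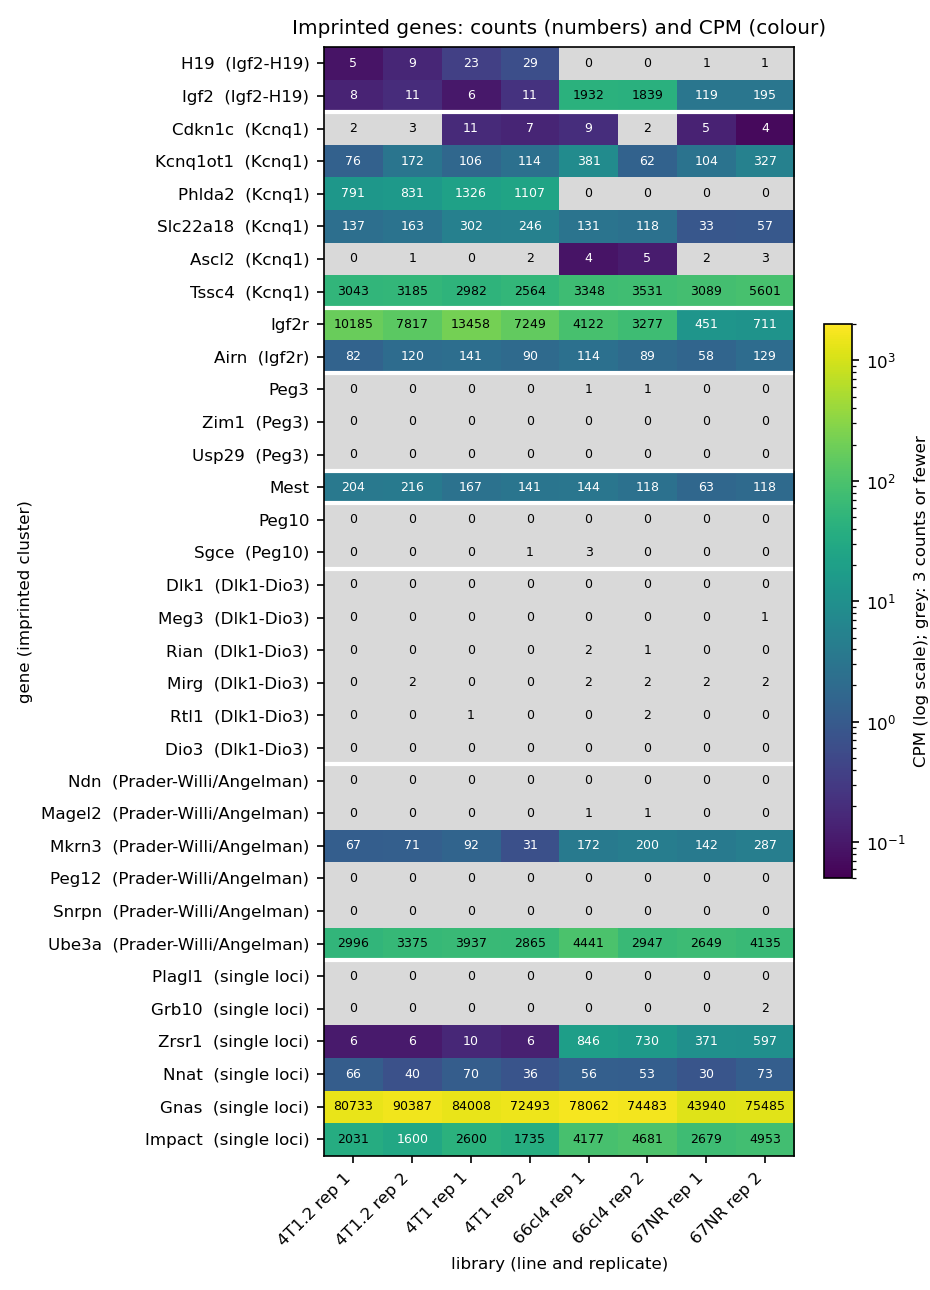
Counts (numbers) and CPM (colour, log scale) of the 34 imprinted genes (rows, by cluster) in the 8 libraries (columns); grey cells hold 3 counts or fewer. The members of the Peg3, Peg10 and Dlk1-Dio3 clusters are grey throughout, while Phlda2, Igf2 and Zrsr1 change colour between the pairs of lines and Gnas is high in every library.

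In 3 clusters every member was at the floor. In the Peg3 cluster, the zinc finger gene Peg3 had at most 1 count in a library, and Zim1 and Usp29 had none. In the Peg10 cluster, the retrotransposon-derived Peg10 had none and the sarcoglycan gene Sgce at most 3. In the Dlk1-Dio3 cluster, Dlk1, which encodes a membrane-bound regulator of differentiation, and Dio3, which encodes the enzyme that inactivates thyroid hormone, had none. The non-coding RNAs of the same cluster, Meg3, Rian and Mirg, had at most 1, 2 and 2 counts, and the retrotransposon-derived Rtl1 had at most 2. Genes on both the father's and the mother's copy were thus at the floor in this cluster.

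In the Prader-Willi/Angelman cluster, the neuronal growth suppressor Ndn, Peg12 and the splicing gene Snrpn had no count and Magel2 at most 1. Snurf, which shares its transcript with Snrpn, also had no count, and 22.6% of the 75-base stretches of Snrpn also occur in other transcripts, so reads of Snrpn could have been lost to counting. The ubiquitin ligase genes Mkrn3 and Ube3a of this cluster were expressed in all 8 libraries and are given below. Among the single loci, Plagl1, a zinc finger gene that restrains the cell cycle, had no count and Grb10, an adaptor that restrains insulin and growth factor signalling, had at most 2 counts.

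Of the 15 imprinted genes tested, 12 differed between lines at an adjusted p under 0.05 (quasi-likelihood test of edgeR, adjusted over 13923 genes by Benjamini-Hochberg), a share of 80.0% against 84.8% of all genes tested. In 9 of them the highest and lowest line were also over 2-fold apart, as in 47.0% of all genes tested. These 9 were H19, Igf2, Phlda2, Slc22a18, Igf2r, Mest, Mkrn3, Zrsr1 and Impact. With 4T1 and 4T1.2 set against 66cl4 and 67NR, 11 of the 15 were called, against 76.7% of all genes. 5 were higher in 4T1 and 4T1.2 (38.1% of all genes were) and 6 were lower (38.6% of all genes were). The median log2 difference was -0.22 over the 15 and -0.01 over all genes tested. By these counts the imprinted genes moved about as often as other genes, in both directions.

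The promoter windows of 4 members that differed widely between lines are shown to let a reader see how the density of CpG, the dinucleotide at which imprints and promoter silencing are written, varies among them. Each line is RefSeq sequence of build GRCm38.p6 from 250 bases before to 50 bases after the annotated start, written from 5′ to 3′ on the strand of the gene, with every CpG in capitals. The windows are chr7:143502475-143502774 (minus strand) for Phlda2, chr7:142658755-142659054 (minus strand) for Igf2, chr17:12769657-12769956 (minus strand) for Igf2r and chr11:22971755-22972054 (plus strand) for Zrsr1.
Phlda2: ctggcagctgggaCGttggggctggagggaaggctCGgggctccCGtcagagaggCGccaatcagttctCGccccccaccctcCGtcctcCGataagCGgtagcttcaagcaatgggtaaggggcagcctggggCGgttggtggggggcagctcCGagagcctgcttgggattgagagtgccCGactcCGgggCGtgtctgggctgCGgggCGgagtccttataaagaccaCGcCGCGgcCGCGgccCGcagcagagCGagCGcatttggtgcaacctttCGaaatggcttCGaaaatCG
Igf2: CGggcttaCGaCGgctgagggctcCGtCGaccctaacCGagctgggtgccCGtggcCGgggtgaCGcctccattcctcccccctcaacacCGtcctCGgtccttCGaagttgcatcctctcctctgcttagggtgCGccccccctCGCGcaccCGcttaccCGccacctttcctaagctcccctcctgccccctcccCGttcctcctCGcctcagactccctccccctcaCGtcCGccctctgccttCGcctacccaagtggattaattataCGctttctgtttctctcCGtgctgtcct
Igf2r: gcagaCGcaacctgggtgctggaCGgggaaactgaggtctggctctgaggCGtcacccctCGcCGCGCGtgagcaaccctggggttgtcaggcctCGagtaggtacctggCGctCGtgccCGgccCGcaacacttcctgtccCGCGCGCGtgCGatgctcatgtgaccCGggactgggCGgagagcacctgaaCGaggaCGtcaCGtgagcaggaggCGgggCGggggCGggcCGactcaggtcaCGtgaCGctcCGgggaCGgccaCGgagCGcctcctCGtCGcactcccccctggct
Zrsr1: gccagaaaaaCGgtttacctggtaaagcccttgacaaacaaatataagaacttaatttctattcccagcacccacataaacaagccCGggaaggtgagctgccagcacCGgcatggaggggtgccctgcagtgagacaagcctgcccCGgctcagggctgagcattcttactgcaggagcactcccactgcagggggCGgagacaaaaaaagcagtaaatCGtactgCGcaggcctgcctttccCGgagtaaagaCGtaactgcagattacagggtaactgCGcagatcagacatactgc

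These windows held 26 CpG for Phlda2, 24 for Igf2, 34 for Igf2r and 10 for Zrsr1. Igf2 has 4 windows, with 2 to 24 CpG, and the one with the most is shown. Windows were found for 28 of the 34 genes, 41 in all, with a median of 13 CpG against 7 over 32851 windows of 27025 genes. The 21 windows of tested members had a median of 17 CpG and the 19 windows of members at the floor a median of 10. The letters TGCCGC, the motif bound by the imprint-keeping protein ZFP57, were sought on both strands and lay in 9 of the 41 windows (22.0%) and in 11.6% of all windows. These letters hold a CpG themselves, and the shares were not adjusted for the higher CpG of the member windows. Windows of a gene can also overlap, as do 2 of Mest that both hold the motif. None of the 4 windows printed holds the letters TGCCGC. Methylation was not measured in these libraries.

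In the Igf2-H19 cluster, the father's copy expresses Igf2, a growth factor of the foetus, and the mother's copy H19, a long non-coding RNA, and both answer to the same enhancers. Igf2 (chromosome 7, 142650768 to 142666816, mm10) had 0.141 and 0.194 CPM in the 4T1.2 libraries, 0.0983 and 0.237 in 4T1, 42.7 and 41.0 for 66cl4, and 3.25 and 3.16 for 67NR. 66cl4 was highest, 67NR lay between, and 4T1.2 and 4T1 overlapped at a level of 6 to 11 counts a library. The pooled log2 difference of 4T1 and 4T1.2 from the other lines was -6.13 (standard error 0.17, edgeR adjusted p = 5.33e-10). Igf2 was also higher in 66cl4 than in 67NR by 3.71 on the log2 scale (standard error 0.16, edgeR adjusted p = 2.78e-07). 4T1.2 and 4T1 differed by 0.07 (standard error 0.44, edgeR adjusted p = 0.945).

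The opposite-strand gene Igf2os overlaps 1.71% of the exonic bases of Igf2, and reads there could have been assigned to it instead. It was the only gene of the count table found to overlap them. Of the 75-base stretches of Igf2 transcripts, 60.7% also occur in Gm49394 or Igf2os, but no exon overlap with Gm49394 was found among the counted genes. Igf2os itself had 30 and 32 counts in 66cl4, 3 and 1 in 67NR, and at most 2 in the other libraries, so it was highest in the line where Igf2 was highest. Strand was not stated for the counting, and the reads of such pairs cannot be told apart.

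H19 (chromosome 7, 142575530 to 142578146) ran the other way at a very low level. It had 5 and 9 counts in 4T1.2, 23 and 29 in 4T1, none in either 66cl4 library, and 1 in each 67NR library. 4T1 was highest, then 4T1.2, and the lines did not overlap above the floor. Over the pooled groups, 66 counts stood against 2, a ratio of 28.1 in CPM (95% counting interval 7.49 to 237, edgeR adjusted p = 0.000257). 4T1 was at least 7.52-fold and 4T1.2 at least 1.85-fold higher than 66cl4, reckoned against 3 counts per library. Against 67NR the ratios were 23.8 (95% counting interval 6.27 to 202) for 4T1 and 6.07 (1.39 to 55.0) for 4T1.2. These intervals cover counting error only.

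With 4T1.2 set against 4T1, 3 of the 15 imprinted genes were called, against 19.3% of all genes, and H19 was one of them, lower in 4T1.2 by -1.97 on the log2 scale (standard error 0.46, edgeR adjusted p = 0.0186). This call did not pass with DESeq2 (adjusted p = 0.110), without replicate 1 of 4T1.2 (0.124) or without replicate 2 of 4T1 (0.0831), all on 5 to 29 counts per library. The call of 4T1.2 over 67NR was likewise lost without replicate 2 of 4T1.2 (edgeR adjusted p = 0.162) and without either 67NR library (0.0828 and 0.200), and it did not pass with DESeq2 (0.0814), with no filter on low counts (0.0514) or at equal depth (0.201).

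**Figure D2:**
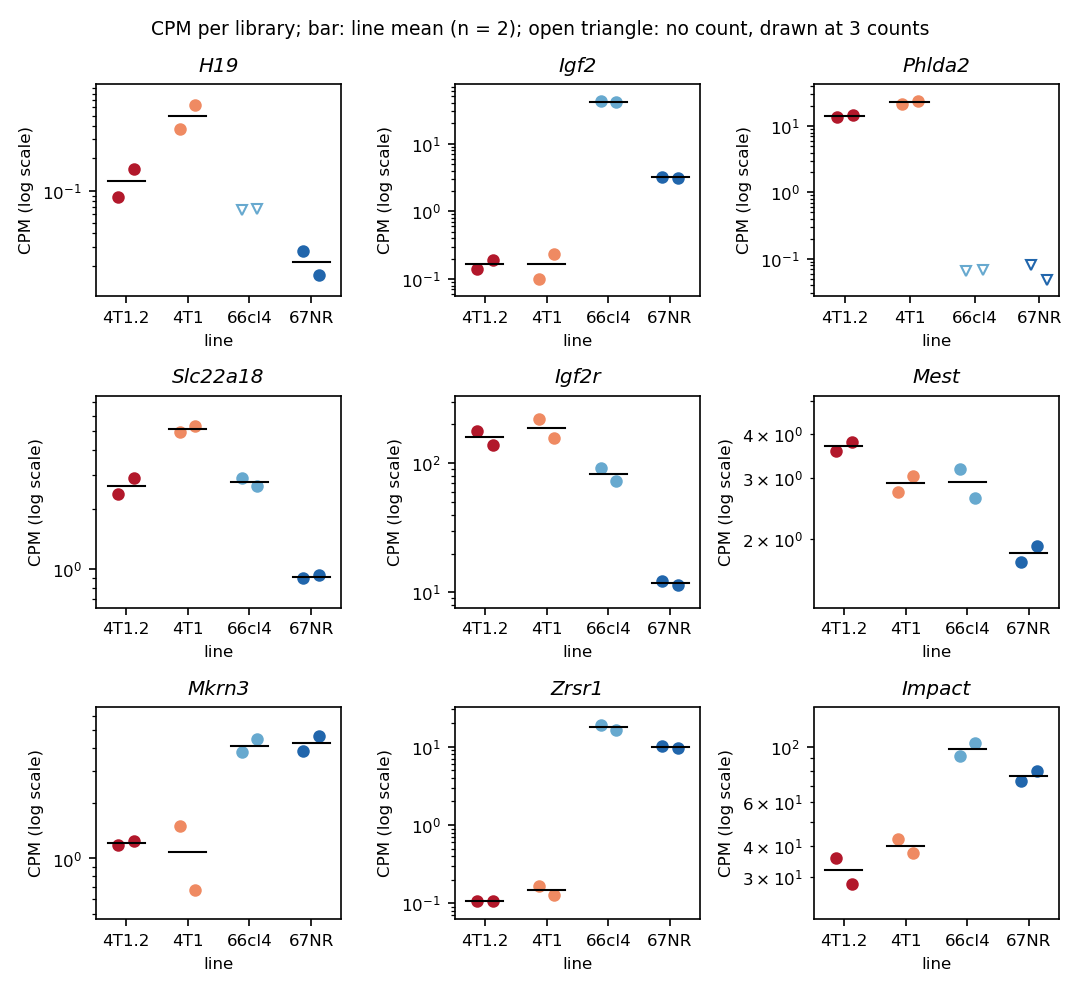
CPM (log scale) of the 9 imprinted genes that differed between lines and were over 2-fold apart, in each library (points) by line, with bars at the mean of 2 libraries; open triangles are libraries with no count, drawn at 3 counts. Igf2 and Zrsr1 are lowest in 4T1.2 and 4T1, and Phlda2 has no count in 66cl4 and 67NR.

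The Kcnq1 cluster lies on the same chromosome arm and holds genes of the mother's copy, silenced on the father's copy by the long non-coding RNA Kcnq1ot1. Phlda2, which restrains growth of the placenta, showed the widest pooled difference of the 15 tested genes. It had 791 and 831 counts in 4T1.2, 1326 and 1107 in 4T1, and none in any of the 4 libraries of 66cl4 and 67NR. In CPM the expressing libraries stood at 13.9 and 14.7 for 4T1.2 and at 21.7 and 23.9 for 4T1, and the floor of the others was at 0.0486 to 0.0819. Phlda2 (chromosome 7, 143501545 to 143503145) was therefore at least 281-fold higher in 4T1 and 4T1.2 than in 66cl4 and 67NR (edgeR adjusted p = 2.26e-09). Line by line, the bounds were 215-fold and 219-fold for 4T1.2 and 342-fold and 349-fold for 4T1, against 66cl4 and 67NR in that order. None of its 75-base stretches occurs in another transcript.

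In 4T1.2, Phlda2 was also below its level in 4T1, by -0.67 on the log2 scale (standard error 0.13, edgeR adjusted p = 0.00909), with no overlap. That call missed the threshold without replicate 1 of 4T1.2 (adjusted p = 0.0777) and without replicate 2 (0.0533), at a log2 difference of -0.63 and -0.71. Slc22a18, a gene for a membrane transporter that lies next to Phlda2, had 2.41 and 2.88 CPM in 4T1.2, 4.95 and 5.31 in 4T1, 2.89 and 2.63 for 66cl4, and 0.901 and 0.924 for 67NR. 4T1 was highest, 67NR lowest, and 4T1.2 and 66cl4 overlapped between them. In the pooled comparison it was higher in 4T1 and 4T1.2 by 1.21 on the log2 scale (standard error 0.12, edgeR adjusted p = 1.12e-05).

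Within the pairs of lines, Slc22a18 in 4T1.2 was below that in 4T1 by -0.95 on the log2 scale (standard error 0.16, edgeR adjusted p = 0.00288) and higher in 66cl4 than in 67NR by 1.59 (standard error 0.19, edgeR adjusted p = 0.000134). Its pooled difference thus rested on 4T1 and 67NR, since 4T1.2 and 66cl4 differed by -0.06 (standard error 0.17, edgeR adjusted p = 0.751). Phlda2 and Slc22a18 were ranked alike in 4T1.2, 4T1 and 67NR but not in 66cl4, where Phlda2 had no count and Slc22a18 had 118 and 131.

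Kcnq1ot1 itself varied widely between replicates. It had 1.34 and 3.03 CPM in 4T1.2, 1.74 and 2.46 in 4T1, 8.42 and 1.38 for 66cl4, and 2.84 and 5.30 for 67NR. The 66cl4 replicates thus spanned nearly the whole range, with 381 counts in replicate 1 and 62 in replicate 2. The pooled log2 difference of -1.08 (standard error 0.48, edgeR adjusted p = 0.0634) was not called. It was called without replicate 2 of 66cl4 (-1.47, edgeR adjusted p = 0.00230), without replicate 2 of 4T1.2 (-1.43, 0.0424) and with no filter on low counts (-1.08, 0.0324). Without replicate 1 of 66cl4 it fell to -0.17 (edgeR adjusted p = 0.675), so the value rested on that library. Malat1, another long nuclear RNA, looked at after the values of Kcnq1ot1 were seen, had 9384 and 4510 counts in the same 66cl4 replicates. Its part in the spread of Kcnq1ot1 was not tested.

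Tssc4, of the same cluster, was expressed in all libraries at 48.8 to 90.8 CPM. It was lower in 4T1 and 4T1.2 by -0.61 on the log2 scale (standard error 0.07, edgeR adjusted p = 1.86e-05), with no overlap between the pairs of lines. Trpm5 overlaps 11.9% of its exonic bases on the opposite strand and had at most 15 counts. Cdkn1c, a cyclin-dependent kinase inhibitor and the best known growth restrainer of the cluster, had 2 to 11 counts in every library, and Ascl2, a transcription factor of the placenta, had 0 to 5. Neither was tested. Kcnq1, the channel gene that gives the cluster its name, had 11 and 7 counts in 4T1 and at most 2 elsewhere.

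Between Prr33 and Dhcr7, a span of chromosome 7 that takes in both clusters and was set after values were seen, 23 genes were tested and 20 were called in the pooled comparison, 8 higher and 12 lower in 4T1 and 4T1.2, with a median log2 difference of -0.61. Of all genes, 76.7% were called, 38.1% higher and 38.6% lower. Neighbours moved in opposite directions. H19 was higher and Igf2 lower. Genes on no list of imprinted genes used here also moved beside them. Tnnt3, on the far side of H19, was higher by 6.43 on the log2 scale (edgeR adjusted p = 3.37e-09), while Mrpl23 between them was not called (-0.18). R74862, past Igf2, was lower by -2.10 (edgeR adjusted p = 4.22e-07). The tetraspanin gene Cd81 had 223 and 219 CPM in 4T1.2 and 4T1 against 29.9 in 66cl4 and 1.91 in 67NR (log2 difference 4.86, standard error 0.09, edgeR adjusted p = 4.92e-11), while Tspan32 on one side and Tssc4 on the other were lower, by -2.36 and -0.61 on the log2 scale. Past Phlda2, Nap1l4 differed by 0.39 and the tRNA synthetase gene Cars by -0.11 (edgeR adjusted p = 0.120), and on the other side Slc22a18 differed by 1.21, against a bound of 281-fold for Phlda2 between them.

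**Figure D3:**
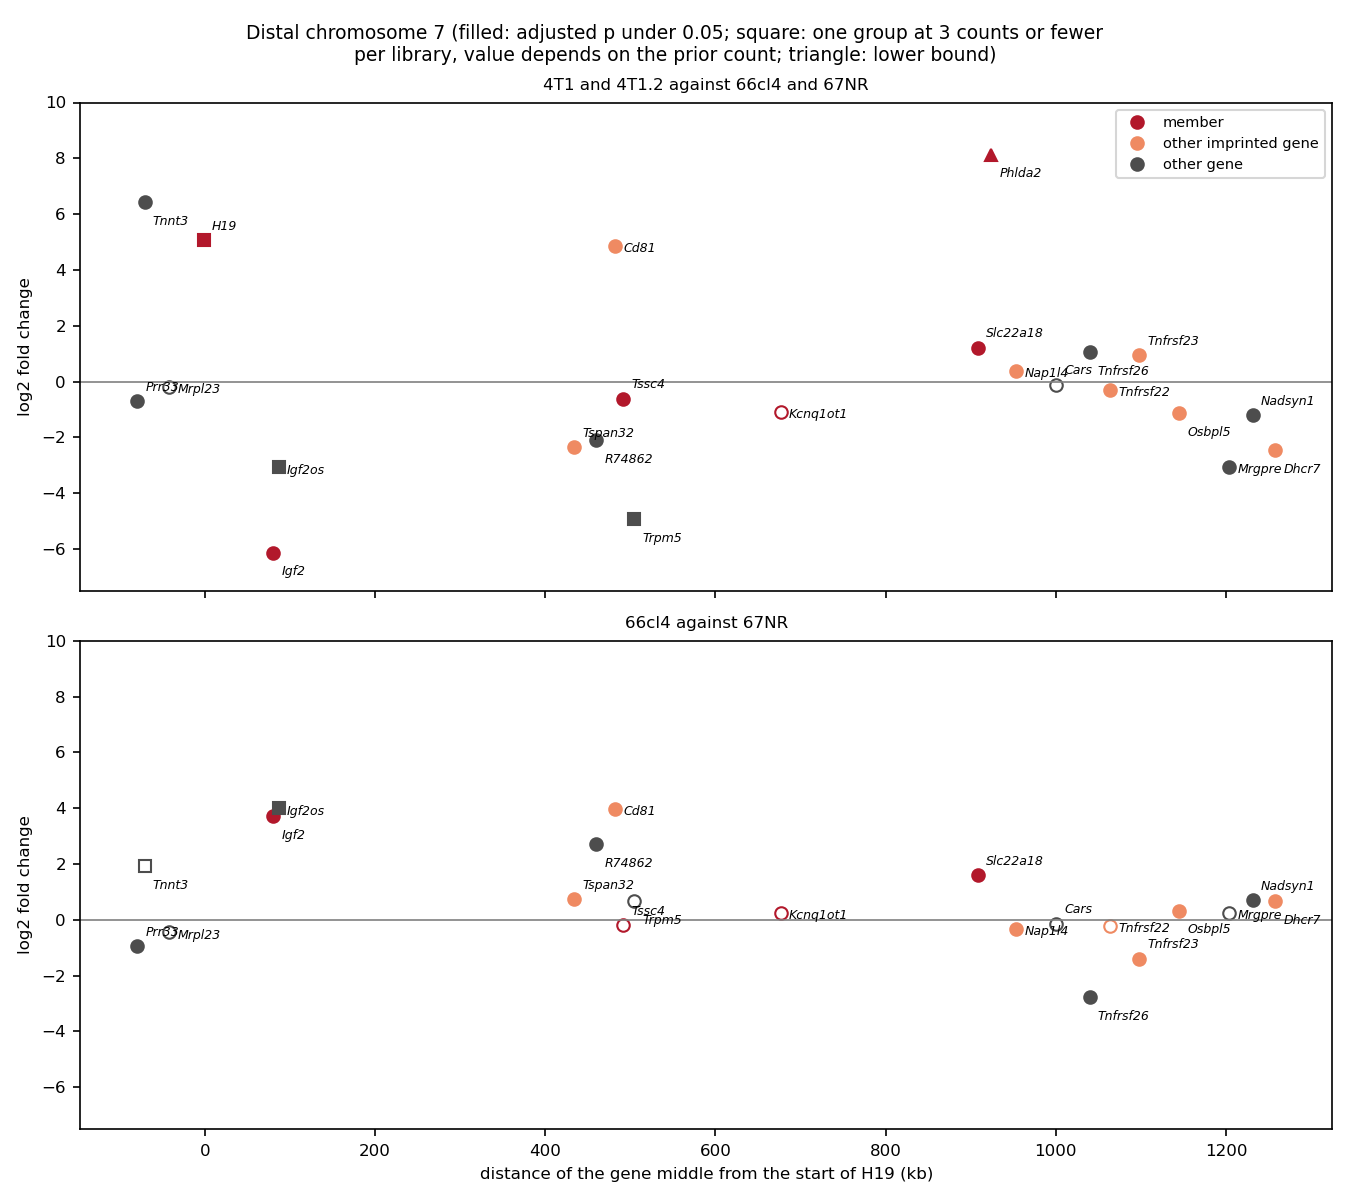
Log2 fold change (vertical) of the 23 tested genes around the Igf2-H19 and Kcnq1 clusters by distance from the start of H19 in kb (horizontal), for the pooled comparison (top) and 66cl4 against 67NR (bottom); filled symbols passed an adjusted p of 0.05, squares have one group at 3 counts or fewer per library and depend on the prior count, and the triangle is the lower bound of Phlda2, which is not drawn in the lower panel, nor is H19. Igf2, 80.6 kb from H19, and Phlda2, 924 kb from it, lie at opposite ends of the vertical range in the upper panel.

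The Igf2r cluster holds the receptor that clears Igf2 from the cell surface and carries it to lysosomes, expressed from the mother's copy, and the non-coding RNA Airn, transcribed from the father's copy out of an intron of Igf2r. Igf2r (chromosome 17, 12682406 to 12769706) had 179 and 138 CPM in 4T1.2, 220 and 156 in 4T1, 91.1 and 73.1 for 66cl4, and 12.3 and 11.5 for 67NR. 4T1.2 and 4T1 overlapped (edgeR adjusted p = 0.388), and both lay above 66cl4, which lay above 67NR. The pooled log2 difference was 2.47 (standard error 0.14, edgeR adjusted p = 8.47e-08), and 66cl4 was above 67NR by 2.79 (standard error 0.20, edgeR adjusted p = 4.96e-06). Airn stood at 1.44 to 2.52 CPM in all libraries and was not called in any comparison, with a pooled log2 difference of -0.07 (standard error 0.18). The exons of Igf2r and Airn share no bases.

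Per length, the ligand and its receptor can be set side by side. In 66cl4, Igf2 had 9.88 RPKM and Igf2r 9.20 RPKM. In 67NR both were lower, at 0.756 RPKM for Igf2 and 1.33 RPKM for Igf2r. In 4T1.2 and 4T1, Igf2 was at 0.0395 and 0.0396 RPKM and Igf2r at 17.8 and 21.1 RPKM. The lines with the most receptor RNA were thus those with the least ligand RNA, but across 66cl4 and 67NR both fell together.

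Mest, expressed from the father's copy and named for its expression in embryonic mesoderm, differed modestly. It had 3.59 and 3.81 CPM in 4T1.2, 2.73 and 3.04 in 4T1, 3.18 and 2.63 for 66cl4, and 1.72 and 1.91 for 67NR (chromosome 6, 30733506 to 30748466). 67NR was lowest, 4T1.2 highest, and 4T1 and 66cl4 overlapped. The pooled log2 difference of 0.50 (standard error 0.12, edgeR adjusted p = 0.00383) came with overlapping libraries. The difference of 66cl4 from 67NR, 0.67 (edgeR adjusted p = 0.0134), was not called without replicate 1 of 66cl4 (adjusted p = 0.0859) or replicate 1 of 67NR (0.0759). Copg2 overlaps 23.1% of the exonic bases of Mest on the opposite strand and stood at 62.9 to 87.1 CPM by line, far above Mest, so reads of Copg2 may be among those counted or discarded here, and the 2 cannot be told apart.

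In the Prader-Willi/Angelman cluster, Mkrn3, expressed from the father's copy and known as a brake on the onset of puberty, had 1.18 and 1.25 CPM in 4T1.2, 1.51 and 0.669 in 4T1, 3.80 and 4.46 for 66cl4, and 3.88 and 4.65 for 67NR (chromosome 7, 62417593 to 62420153). 4T1.2 and 4T1 overlapped, as did 66cl4 and 67NR, and the 2 pairs did not. Set against 66cl4 and 67NR, 4T1 and 4T1.2 differed by -1.85 on the log2 scale (standard error 0.21, edgeR adjusted p = 2.03e-05). Mkrn3 thus differed while its neighbours on the same copy, Ndn, Magel2 and Peg12, were at 1 count or fewer in every library. Genes beside the cluster also moved. The 6 nearest tested ones on no list of imprinted genes used here differed by -3.06 to 0.38 on the log2 scale in the pooled comparison, with a median of -0.62.

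Ube3a, whose loss from the mother's copy in neurons causes Angelman syndrome, was expressed at 52.8 to 98.1 CPM. Its pooled log2 difference of -0.34 (standard error 0.11, edgeR adjusted p = 0.0195) was not called without replicate 1 of 4T1.2 (adjusted p = 0.0730), of 66cl4 (0.0562) or of 67NR (0.0690). Replicate 1 of 66cl4 held its highest level. Snhg14, whose transcript runs opposite to Ube3a, overlaps 8.74% of its exonic bases and had 30 to 116 counts in 4T1.2, 4T1 and 66cl4 and none in 67NR. It was singled out after its values were seen.

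Of the single loci, Zrsr1, a splicing factor gene of retroposed origin expressed from the father's copy, showed a difference as wide as that of Igf2. It had 6 and 6 counts in 4T1.2, 10 and 6 in 4T1, 846 and 730 for 66cl4, and 371 and 597 for 67NR. In CPM the levels were 0.106 and 0.106, 0.164 and 0.129, 18.7 and 16.3, and 10.1 and 9.68 in the same order. Pooled, the log2 difference was -6.69 (standard error 0.15, edgeR adjusted p = 1.23e-10), and 66cl4 was above 67NR by 0.82 (standard error 0.13, edgeR adjusted p = 0.000627). Zrsr1 (chromosome 11, 22972005 to 22976496) lies inside an intron of Commd1 and shares 9.17% of its exonic bases with it on the opposite strand. Commd1 moved the other way, 0.86 higher in 4T1 and 4T1.2 on the log2 scale (standard error 0.11, edgeR adjusted p = 4.57e-05).

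Impact, expressed from the father's copy and an inhibitor of the amino acid sensor Gcn2, had 35.8 and 28.2 CPM in 4T1.2, 42.6 and 37.4 in 4T1, 92.3 and 104 for 66cl4, and 73.1 and 80.3 for 67NR. All 4 libraries of 66cl4 and 67NR lay above those of 4T1.2 and 4T1, and the pooled log2 difference was -1.28 (standard error 0.09, edgeR adjusted p = 7.61e-07). Its difference between 66cl4 and 67NR (0.36, edgeR adjusted p = 0.0459) was not called without any one of the 4 libraries of these lines, with an adjusted p of 0.0578 to 0.235, nor with no filter on low counts (0.0506) or no removal by annotation (0.0633).

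Gnas, which encodes the stimulatory G protein and has transcripts from either copy, was the most abundant member per length, at 200 to 279 RPKM by line. It did not differ in the pooled comparison (log2 difference 0.06, standard error 0.08, edgeR adjusted p = 0.519) and was above 67NR in 66cl4 by 0.48 (standard error 0.11, edgeR adjusted p = 0.00520). Nnat, a small membrane protein of developing neurons expressed from the father's copy, had 30 to 73 counts per library and was not called in any comparison. Of the tested members, Airn, Nnat and Kcnq1ot1 passed none.

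**Figure D4:**
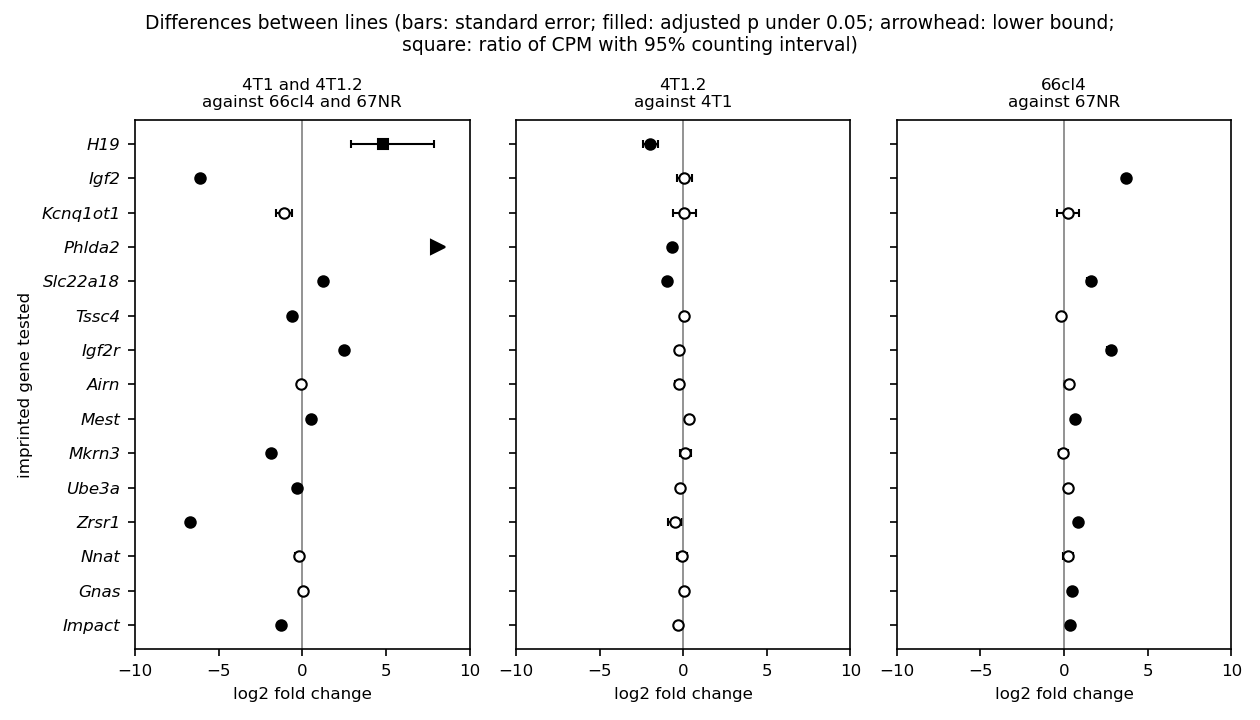
Log2 fold change (horizontal) of the 15 tested imprinted genes (vertical) in the pooled comparison, 4T1.2 against 4T1 and 66cl4 against 67NR; bars are standard errors, filled circles passed an adjusted p of 0.05, the arrowhead is the lower bound of Phlda2 and the square is the ratio of H19 with its 95% counting interval. Called differences lie on both sides of 0 in the pooled comparison, on the lower side in 4T1.2 against 4T1, and on the higher side in 66cl4 against 67NR.

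In 66cl4 against 67NR, 7 of the 15 were called, against 44.6% of all genes, and all 7 were higher in 66cl4 (22.2% of all genes were) and none lower (22.4% of all genes), namely Igf2, Slc22a18, Igf2r, Mest, Zrsr1, Gnas and Impact. The further list of imprinted genes given below was not one-sided here. Of its 26 tested genes, 17 were called (65.4%), 10 higher and 7 lower in 66cl4, with a median log2 difference of -0.017. Among the 3 called in 4T1.2 against 4T1, H19, Phlda2 and Slc22a18 were all lower in 4T1.2 (9.93% of all genes were) and none was higher (9.37% of all genes). These 3 lie on distal chromosome 7 and are expressed from the mother's copy by textbook, though origin was not measured here. Without replicate 1 of 4T1.2 the count was 1, Slc22a18 alone (adjusted p of 0.124 for H19 and 0.0777 for Phlda2). Of the 26 tested genes on the further list of imprinted genes, 6 were called in 4T1.2 against 4T1 (23.1%), also all lower in 4T1.2. They were Sfmbt2, Ppp1r9a, Dhcr7, Dcn, Slc38a4 and Gab1, of which Dhcr7 alone lies on chromosome 7. In the same comparison, 6 of the 23 tested genes of the chromosome 7 span were called, all lower (19.3% of all genes were called). Besides H19, Phlda2 and Slc22a18 they were Dhcr7 (-0.49), Tnnt3 (-1.18) and Tnfrsf26 (-0.98), the last 2 on no list of imprinted genes used here. Tssc4, also assigned to the mother's copy by textbook, differed by 0.08 and was not called. The other comparisons share libraries with those of 4T1.2 against 4T1 and of 66cl4 against 67NR. Against 66cl4, 9 members were called for 4T1.2 (68.9% of all genes), 3 higher (34.3%) and 6 lower (34.5%). For 4T1 against 66cl4 they were also 9 (70.1%), 4 higher (34.9%) and 5 lower (35.2%). Against 67NR, 11 were called for 4T1.2 (67.9%), 6 higher (33.7%) and 5 lower (34.1%). For 4T1 against 67NR they were 11 (68.2%), 6 higher (33.8%) and 5 lower (34.4%). H19, Phlda2 and Igf2r were higher, and Igf2, Tssc4, Mkrn3, Zrsr1 and Impact lower, in each of these 4 comparisons.

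A further list of 46 genes reported as imprinted in mouse had 43 genes in the table, of which 14 (32.6%) were at or under the floor and 26 (60.5%) were tested. In the pooled comparison, 24 of the 26 were called (92.3%, against 76.7% of all genes), 12 in each direction (38.1% of all genes were higher and 38.6% lower), with a median log2 difference of 0.09. The wide differences among them ran in both directions. The non-coding RNA Peg13 had 61.9 and 52.9 CPM in 4T1.2 and 4T1 against 7.29 and 1.76 in 66cl4 and 67NR (log2 difference 4.00, standard error 0.09, edgeR adjusted p = 9.36e-11). The neurabin gene Ppp1r9a had 655 to 1551 counts in 4T1.2 and 4T1 and 1 or 2 in the other libraries. The docking protein gene Gab1 had 0.485 and 0.793 CPM against 44.5 and 64.6 (log2 difference -6.42, standard error 0.10, edgeR adjusted p = 2.01e-11). Ppp1r9a lies in the cluster of Peg10 and Sgce, which were at the floor in the same libraries.

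Of 15 genes whose products lay down, keep or remove imprints, 14 were tested and 8 were called in the pooled comparison (57.1%, against 76.7% of all genes), 2 higher (38.1% of all genes) and 6 lower (38.6% of all genes) in 4T1 and 4T1.2. The higher ones were Tet1, an enzyme that oxidises methylated cytosine, at 88 to 135 counts against 5 to 12, and Dnmt3b, a methyltransferase that acts on unmethylated DNA, at 159 to 350 counts against 1 to 3. The log2 difference of Tet1 was 3.44 (standard error 0.22, edgeR adjusted p = 3.26e-07), and the adjusted p of Dnmt3b was 1.09e-08. The 6 lower ones, Zfp57, Setdb1, Smchd1, Ehmt2, Tet2 and Tet3, differed by -0.17 to -0.49 on the log2 scale. For each of these 6 the libraries of the 2 groups overlapped. Zfp57 had 18.5 CPM in 4T1 against 15.0 in 67NR, and Tet2 8.48 against 6.37, so neither was lower in 4T1 than in 67NR. Dnmt1, which copies methylation after replication, its partner Uhrf1, and Trim28 were not called, with log2 differences of -0.05, -0.12 and 0.04. Zfp445, Ctcf and Dnmt3a were not called either.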

How the data were processed

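Total RNA of the cell lines was made into libraries with Illumina's TruSeq RNA v2 kit, which does not mark strand. The authors aligned reads to mm10 with Rsubread and used featureCounts to count reads per Entrez gene. These raw counts, not normalized, are the deposited values, and whether the counting used strand is not given in the sources used here. The 8 files of single libraries held the same values as the table of the whole series. Totals per library were 37159840 to 66269681 counts, and the 10 most abundant genes held 4.67% to 7.58% of a library.

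What follows was computed from the counts. Identifiers were matched to a GRCm38 gene table (25275 of 27179, 93.0%). filterByExpr at its defaults kept 15269 genes, and dropping ribosomal genes, predicted genes and identifiers that had no entry left 13923. The test was the quasi-likelihood F-test of edgeR 4.0.16 in R 4.3.3 with limma 3.58.1 (legacy fit, TMM scaling, prior count 0.125) on all 8 libraries with a mean for each line, 4 residual degrees of freedom and a biological coefficient of variation of 9.74%. Adjusted p-values are Benjamini-Hochberg values over the 13923 genes, with a threshold of 0.05. Standard errors are the log2 difference over the root of F. CPM use TMM effective sizes, and RPKM the gene lengths in the files. Where every library of a group had no count, a fold is a bound against 3 counts per library. Where it had 1 to 3 counts, a ratio of CPM is given with an exact 95% interval for counting error.

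All 34 imprinted genes were accounted for. Those that differed between lines, with line means over 2-fold apart, were given in full. The members, lists and tests were chosen with earlier results of these data known, and origin of the expressed copy is textbook knowledge. The span on chromosome 7, Malat1 and Snhg14 were added after values were seen. Shared sequence was computed from GENCODE transcripts of GRCm38, and promoter windows are RefSeq's. In simulated counts for the 13923 genes, the pooled comparison by edgeR recovered 98 of 100 genes changed by 1 on the log2 scale and 100 of 100 changed by 2, with 17 false calls. For 4T1.2 against 4T1 it recovered 93 of 100 and 100 of 100, with 13 false calls. The changed genes were drawn from those with a mean above 1 CPM and all others were left unchanged. Recovery at the low level of H19 was therefore not simulated.

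The alternatives tried were edgeR with the size factors of DESeq2 1.42.0, that tool's own test, no filter on low counts, no removal by annotation, the newer quasi-likelihood fit, a prior count of 2, counts thinned to equal depth, the replicate number as a block, and leaving out each library in turn. Replicate numbers were checked for pairing by the correlation of deviations from line means, which ran from -0.123 to 0.270 over the pairs of lines, so the numbers were not taken to pair libraries. Figures were drawn with matplotlib 3.10.9 in Python 3.11.15.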

Additional observations from a re-analysis of the deposited data

How the results depend on the processing

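With all libraries kept, 11 or 12 imprinted genes differed between the 4 lines under every alternative (12 as reported), and 11 or 12 in the pooled comparison (11 as reported). Leaving out each library in turn gave 10 to 13 and 10 to 12. In 4T1.2 against 4T1 the count was 1 to 3 over the libraries left out (3 as reported). The lowest came without replicate 1 of 4T1.2, when H19 and Phlda2 missed the threshold and Slc22a18 passed. In 66cl4 against 67NR it was 5 to 7 (7 as reported). Over the single-gene results under all alternatives, 1561 kept their direction and their side of the threshold, 35 kept their direction but fell short of it, 10 newly passed it and 42 changed direction. Of those that fell short, 29 came with a library left out. The 42 belong to 19 differences, and 0 of them were called before or after the change. Most (35) came with a library left out, over which the log2 difference of 4T1.2 from 4T1 ran from -0.47 to 0.021 for Igf2r, -0.46 to 0.27 for Nnat, -0.053 to 0.13 for Gnas, -0.31 to 0.86 for Mkrn3, -0.50 to 0.76 for Igf2, -0.011 to 0.17 for Tssc4 and -0.64 to 0.55 for Kcnq1ot1. That of 66cl4 from 67NR ran from -0.082 to 0.49 for Ube3a, -0.17 to 0.092 for Mkrn3 and -1.59 to 1.02 for Kcnq1ot1. Against 66cl4, Kcnq1ot1 ran from -1.94 to 0.66 in 4T1.2 and from -2.02 to 0.58 in 4T1, Slc22a18 from -0.19 to 0.073 in 4T1.2, Airn from -0.24 to 0.10 and Mest from -0.14 to 0.13 in 4T1. Against 67NR, Airn ran from -0.37 to 0.18 and Nnat from -0.54 to 0.19 in 4T1.2, and Nnat from -0.40 to 0.25 in 4T1. The pooled difference of Airn ran from -0.22 to 0.059. At equal depth, Igf2 (-0.13) and Kcnq1ot1 (-0.14) in 4T1.2 against 4T1, Slc22a18 (0.011) in 4T1.2 against 66cl4, and Nnat against 67NR in 4T1.2 (0.028) and 4T1 (0.038) changed direction. Mest in 4T1 against 66cl4 did so with no filter (0.002) and with no removal by annotation (0.012). The fit with the replicate number as a block gave 12 genes over the 4 lines, 11 in the pooled comparison, 3 in 4T1.2 against 4T1 and 7 in 66cl4 against 67NR, the same counts as without the block, and changed no call of a single gene. The share of all genes called in 4T1.2 against 4T1 fell from 19.3% to 9.85% without replicate 1 of 4T1.2, so calls of all genes and of imprinted genes fell together there. DESeq2's size factors moved the CPM of imprinted genes by -0.686% to 0.473%. Depth limits what can be said of the 17 genes at or under the floor, of Cdkn1c and Ascl2, and of H19, whose calls rest on at most 29 counts a library.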
